A study of Mus musculus with 20 samples.

Results

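Prenatal exposure to di-(2-ethylhexyl) phthalate (DEHP), a plasticizer, was compared with vehicle in the sperm of C57BL/6J male mice. The data are the methylation signals of all 22480 promoters in the series, measured in 10 of its 20 libraries. The 5 C57BL/6J control males were born to mothers given corn oil, and the 5 C57BL/6J DEHP males to mothers given DEHP in corn oil at 300 mg/kg/day. Dosing was oral and lasted from day 9 to day 19 of gestation. Sperm of the sons came from epididymis and vas deferens at 8 weeks of age. The other 10 libraries are FVB/N males of the same design (5 control and 5 DEHP), and their values are given beside those of C57BL/6J. The labels do not tie the males to litters. Control and DEHP libraries were prepared and sequenced as separate submissions, so that treatment and submission cannot be told apart in any value below.

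In MBD-sequencing, methylated fragments are pulled down with a protein domain that binds methylated CG, so reads over a promoter grow with its methylation as well as with its CG sites. Fetal male germ cells lose most of their DNA methylation and gain it again before birth, and this window overlaps the dosing period. In mature sperm, CG-rich promoters are mostly free of methylation and CG-poor promoters are mostly methylated. At imprinted genes, the parental copies carry different marks, and those set in the egg are absent from sperm.

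Each promoter was a probe of 2200 bases, and its values were the authors' mean and SD of normalized reads over the 5 libraries of a group. Single libraries were not analysed here. No test between groups was run on the means and SDs, so no difference below has a p-value. The deposited means summed to 226268 normalized reads in controls and 153283 in DEHP. Both columns were therefore brought to a common sum by multiplying control values by 0.839 and DEHP values by 1.24. All levels below are scaled normalized reads, written as the authors' mean ± SD. The log2 ratio is that of control over DEHP after adding 1 to each mean, so that negative values stand for more signal after DEHP. The size of a difference was judged by dividing it by the larger of both SDs. No value in a group of 5 is more than 1.79 SD away from the group mean. Groups whose ranges of 1.79 SD did not overlap are called separated, which means that every DEHP library was above, or below, every control library.

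The sequences of 5 separated promoters are shown first, because they differ in CG content. They were chosen after their values were seen and are not the first 5 by size of difference. The 300 bases around the gene start follow in GRCm38.p6 from RefSeq, 5′ to 3′ on the strand of the gene, with every CG in capitals. The first 3 had more signal after DEHP. Vmn2r16 encodes a vomeronasal receptor (chr5:109330131-109330430, plus strand). Ndn encodes necdin, a growth suppressor that is expressed from the paternal copy (chr7:62348027-62348326, plus strand). Snrpn encodes a splicing protein of the same imprinted domain (chr7:60450128-60450427, minus strand). The last 2 had less signal after DEHP. Ifit2 encodes an interferon-induced antiviral protein (chr19:34550444-34550743, plus strand). Fgf4 encodes a growth factor of the early embryo (chr7:144861136-144861435, plus strand).
Vmn2r16: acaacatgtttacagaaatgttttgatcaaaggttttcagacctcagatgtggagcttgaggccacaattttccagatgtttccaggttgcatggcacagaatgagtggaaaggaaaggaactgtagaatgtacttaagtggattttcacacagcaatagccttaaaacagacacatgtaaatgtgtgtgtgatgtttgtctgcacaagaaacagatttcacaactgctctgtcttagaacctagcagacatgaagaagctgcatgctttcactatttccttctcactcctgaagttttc
Ndn: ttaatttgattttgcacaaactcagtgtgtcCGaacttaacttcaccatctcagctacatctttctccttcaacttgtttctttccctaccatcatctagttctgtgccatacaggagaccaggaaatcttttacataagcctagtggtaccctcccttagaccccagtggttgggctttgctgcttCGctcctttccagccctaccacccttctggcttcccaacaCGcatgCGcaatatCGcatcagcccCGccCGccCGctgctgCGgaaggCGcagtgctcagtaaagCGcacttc
Snrpn: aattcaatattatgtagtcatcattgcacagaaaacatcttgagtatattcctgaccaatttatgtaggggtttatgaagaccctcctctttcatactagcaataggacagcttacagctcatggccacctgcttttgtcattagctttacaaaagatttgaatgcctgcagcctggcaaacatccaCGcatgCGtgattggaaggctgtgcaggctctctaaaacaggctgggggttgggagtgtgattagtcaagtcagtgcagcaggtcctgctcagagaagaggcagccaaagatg
Ifit2: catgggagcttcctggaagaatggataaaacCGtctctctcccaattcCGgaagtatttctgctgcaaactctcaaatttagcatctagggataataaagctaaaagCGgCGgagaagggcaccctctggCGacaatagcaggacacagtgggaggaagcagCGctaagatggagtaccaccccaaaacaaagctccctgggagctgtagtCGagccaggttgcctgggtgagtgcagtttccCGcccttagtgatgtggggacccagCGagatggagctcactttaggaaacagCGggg
Fgf4: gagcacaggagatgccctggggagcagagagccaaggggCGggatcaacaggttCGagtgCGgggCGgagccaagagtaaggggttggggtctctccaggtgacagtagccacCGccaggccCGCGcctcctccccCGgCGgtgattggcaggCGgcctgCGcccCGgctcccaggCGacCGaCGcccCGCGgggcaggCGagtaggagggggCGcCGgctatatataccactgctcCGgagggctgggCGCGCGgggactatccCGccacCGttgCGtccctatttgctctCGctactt
These windows held 0 CG sites in Vmn2r16, 11 in Ndn, 2 in Snrpn, 10 in Ifit2 and 28 in Fgf4. The median of the 32851 RefSeq promoter windows was 7, and 5.43% of them held none. Over the whole probe the numbers were 10, 31, 15, 35 and 74 CG sites in the same order.

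Across all promoters, 3585 of 22480 (15.9%) had at least 2-fold more signal after DEHP and 531 (2.36%) at least 2-fold less. The median log2 ratio was -0.34, with quartiles of -0.80 and 0.13. Most of these differences were small against the spread between animals, since the median difference was 0.754 of the larger SD. The libraries were separated at 230 promoters (1.02%) with DEHP above control and at 29 (0.129%) with DEHP below control. Both numbers are lower limits. Counts of promoters in either direction are those under the common sum unless another scaling is named. The balance of directions rested on the scaling. With means scaled to equal medians, 1000 promoters were at least 2-fold higher and 2922 at least 2-fold lower, and with the deposited values 1265 and 2488. Under these scalings the median of all promoters lay at 0.17 and 0.10. Classes of promoters are therefore given below relative to the median of all promoters, and separation was also counted under every scaling tried. Of 5 scalings, all left 50 promoters separated above and 29 separated below. The common sum weighs control against DEHP lowest of the 5. Promoters separated below under it therefore stay so under the others by construction, and the 29 are no test of the scaling. The 50 are those separated above with equal medians, which weigh control highest.

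The log2 ratio went with the strength of the signal above 2 scaled reads. Of all promoters, those with a mean over both groups of 2 to 5 scaled reads had the lowest median log2 ratio, at -0.69. It was less negative at weaker promoters, with -0.27 below 1 read and -0.52 at 1 to 2 reads. Promoters of 5 to 10 reads had -0.41. The median was 0.03 at 10 to 20, 0.44 at 20 to 40 and 0.998 at 40 or more. Promoters of weak signal were thus mostly higher, and those of strong signal mostly lower, in DEHP than in control sperm relative to the total. The promoters below the median level of their group held 11.2% of all control reads and 20.3% of all DEHP reads. The strongest 10% held 41.8% and 28.3%. In FVB/N, the strongest 10% held 44.5% of control and 30.3% of DEHP reads. Across promoters, the log2 ratio had a Pearson r of 0.45 with the log2 level and of 0.30 with the log2 number of CG sites. These describe 22480 promoters of the same 10 libraries, which are not independent replicates.

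**Figure D1:**
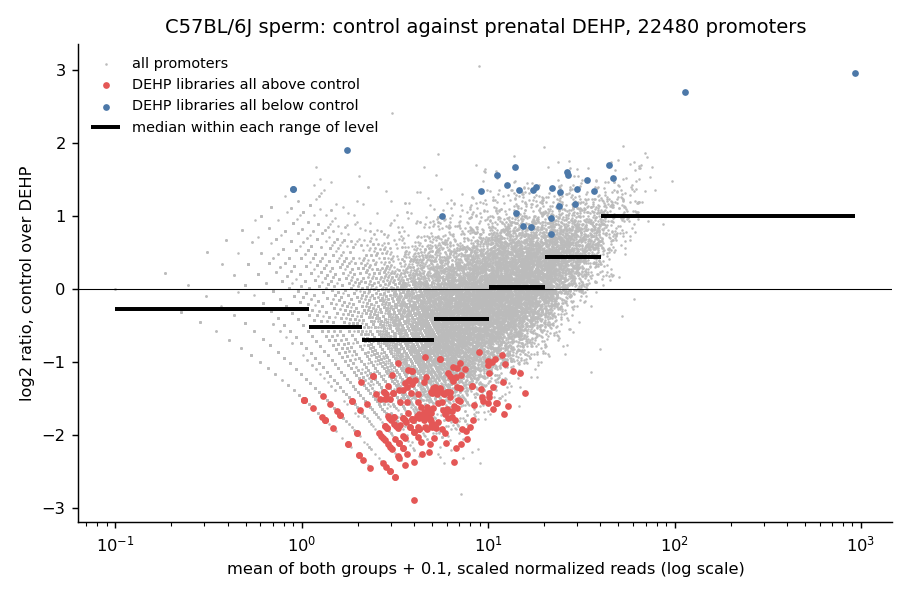
Each point is a promoter of C57BL/6J sperm, with the mean of both groups in scaled normalized reads on a log axis and the log2 ratio of control over DEHP on the other axis. Red and blue points are the 230 and 29 promoters whose DEHP libraries were all above or all below the control libraries, and the black bars, medians within each range of level, climb from -0.69 at 2 to 5 reads to 0.998 at 40 or more.

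The number of CG sites went with the log2 ratio at every level. Among promoters of 2 to 5 scaled reads, the median rose from -1.08 at 1 to 10 CG sites to -0.35 at over 100 sites. Among those of 20 to 40 scaled reads, it went from 0.02 at 11 to 20 sites to 0.99 at over 100. Of all promoters, 15.9% were at least 2-fold higher after DEHP, 2.36% at least 2-fold lower and 1.02% separated above. Of the 2006 promoters with 1 to 10 CG sites, 988 (49.3%) were at least 2-fold higher after DEHP, 0 at least 2-fold lower, and 72 (3.59%) separated above. Of the 1823 promoters with over 100 CG sites, 111 (6.09%) were at least 2-fold higher and 80 (4.39%) at least 2-fold lower. The 230 promoters separated above held a median of 15.5 CG sites and 40.9% GC, against 53 sites and 52.4% GC in the 29 separated below and 45 sites and 48.0% GC in all promoters. Their control signal was 1.47 scaled reads as a median, against 27.3 in the 29. The repeat-masked share of the probes was close in all of them, at 18.8%, 17.8% and 19.2%.

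**Figure D2:**
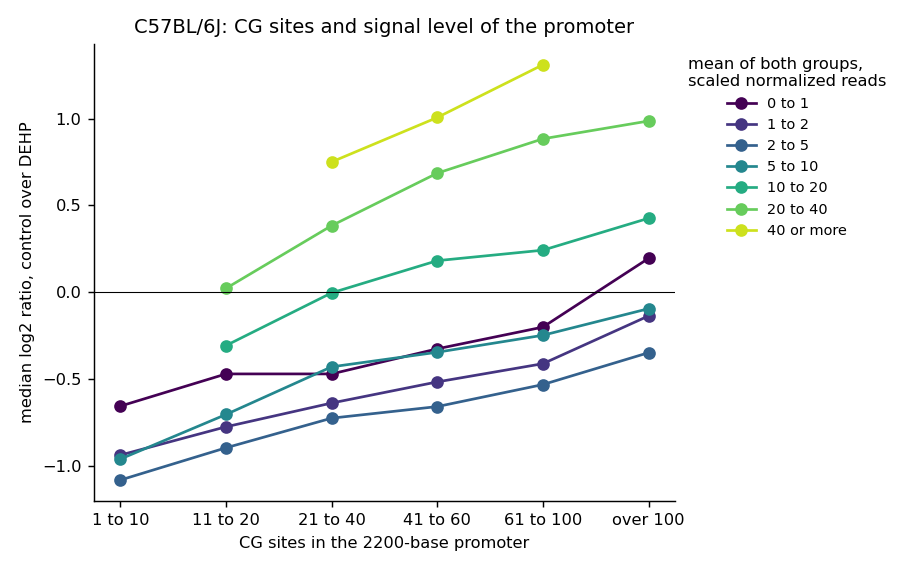
Median log2 ratio of control over DEHP in C57BL/6J against the number of CG sites in the promoter, with a line for each range of the mean of both groups in scaled normalized reads. Every line is higher at its CG-rich end than at its CG-poor end, for example from -1.08 to -0.35 at 2 to 5 reads, and points with under 20 promoters are left out.

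The 15 promoters that were highest after DEHP by this measure were led by chemosensory receptors. By the rule used, a promoter had to be separated, at least 2-fold apart and at 3 or more scaled reads in the higher group, and 207 promoters met it with DEHP above. The vomeronasal receptor Vmn2r16 had 0.17 ± 0.42 in control and 5.08 ± 0.50 in DEHP sperm (log2 ratio -2.38, 9.91 times the larger SD). A second receptor of that kind, Vmn1r68, had 1.34 ± 0.75 and 6.93 ± 0.74. The olfactory receptors Olfr1295, Olfr123, Olfr328, Olfr1278, Olfr1028, Olfr1250 and Olfr1299 had log2 ratios between -1.20 (Olfr1278) and -2.57 (Olfr1028). Olfr1028 went from 0.17 ± 0.42 in control to 5.94 ± 0.99 in DEHP. Olfr1299 shares its probe with the pseudogene Olfr1300-ps1, and these count as 1 region. In FVB/N the same 9 receptors had log2 ratios of -0.42 to -1.59, and 0 of them were separated.

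The other 6 of the 15 were no chemosensory genes. Steap2, a metalloreductase, had 1.01 ± 1.01 in control and 7.18 ± 0.99 in DEHP. Ndn had 0.59 ± 0.92 and 5.82 ± 0.87, and Btg4, which acts in mRNA clearance in the egg, 0.84 ± 0.84 and 5.70 ± 0.87. These 3 groups of DEHP libraries thus lay between 5.70 and 7.18 as means, while the control means were all near 1 scaled read or below. The zinc finger gene Zfp493 had 1.34 ± 0.84 and 7.80 ± 1.24. Rcan2, an inhibitor of calcineurin, had 2.35 ± 0.50 and 8.79 ± 1.24, and was the most CG-rich of the 15 with 69 sites. The secretoglobin Scgb2b26 had 3.94 ± 0.67 and 9.41 ± 0.99. Of the 15, 12 were separated under all 5 scalings, Olfr1299 under 4, and Olfr1278 and Scgb2b26 under 3. A control mean of 0.17 stands for a deposited mean of 0.2 normalized reads, so that these ratios rest on very few reads.

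Promoters that were lower after DEHP were fewer, stronger and spread over unlike genes. The rule was met by 23 promoters. The 15 with the largest difference over SD were all separated under all 5 scalings, which the choice of the common sum had fixed in advance. Ifit2 had 25.4 ± 4.45 in control and 9.29 ± 2.72 in DEHP (log2 ratio 1.36, 3.63 times the larger SD). Kif7, a kinesin of hedgehog signalling in the primary cilium, had 21.5 ± 5.45 and 6.07 ± 2.10. Ndst1, a heparan sulfate sulfotransferase, had 19.2 ± 2.60 and 8.79 ± 2.97. In all 3 the control mean was at least 2-fold above the DEHP mean, and the log2 ratios were 1.36, 1.67 and 1.05. In FVB/N, Ifit2 and Kif7 had ratios of 0.88 and 1.19 and Ndst1 one of -0.25.

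The other members had unlike roles. Casq1, the calcium store protein of skeletal muscle, had 53.5 ± 10.8 in control and 20.4 ± 6.07 in DEHP. Asic4, a subunit of the acid-sensing ion channel family, had 40.3 ± 8.64 and 12.6 ± 4.21. Arfgap2, a regulator of vesicle traffic, had 50.5 ± 10.9 and 17.3 ± 6.93, and its probe also overlaps exons of Pacsin3. Mepce, a capping enzyme of the 7SK RNA, was the most CG-rich of the 15 with 129 sites and had 3.19 ± 0.84 and 0.12 ± 0.37. Gm3336, with 68.4 ± 14.4 and 20.3 ± 6.56, was separated in FVB/N as well, with a log2 ratio of 1.47. LOC102633315 (43.7 ± 9.06 and 16.2 ± 5.57), whose probe overlaps exons of Fgfr1, was also separated in FVB/N (1.90). The first of the ranking, Gm20767 (7.72 ± 0.92 and 3.34 ± 0.99), and the olfactory receptor Olfr1033 (18.6 ± 3.10 and 6.31 ± 2.72) had probes that were repeat-masked over 99.6% and 93.0% of their length. How uniquely reads can be placed in these 2 was not measured. The remaining members, 1700030M09Rik and Gm14057, had log2 ratios of 1.56 and 1.38. Fgf4 also met the rule below the first 15, with 21.3 ± 5.62 and 7.68 ± 1.24 and a log2 ratio of 0.44 in FVB/N. So did 3110070M22Rik (197 ± 67.8 and 29.6 ± 13.0) and Sfi1 (1654 ± 589 and 213 ± 53.9). Their log2 ratios of 2.69 and 2.95 were the largest of the 23, and both were separated below in FVB/N too.

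**Figure D3:**
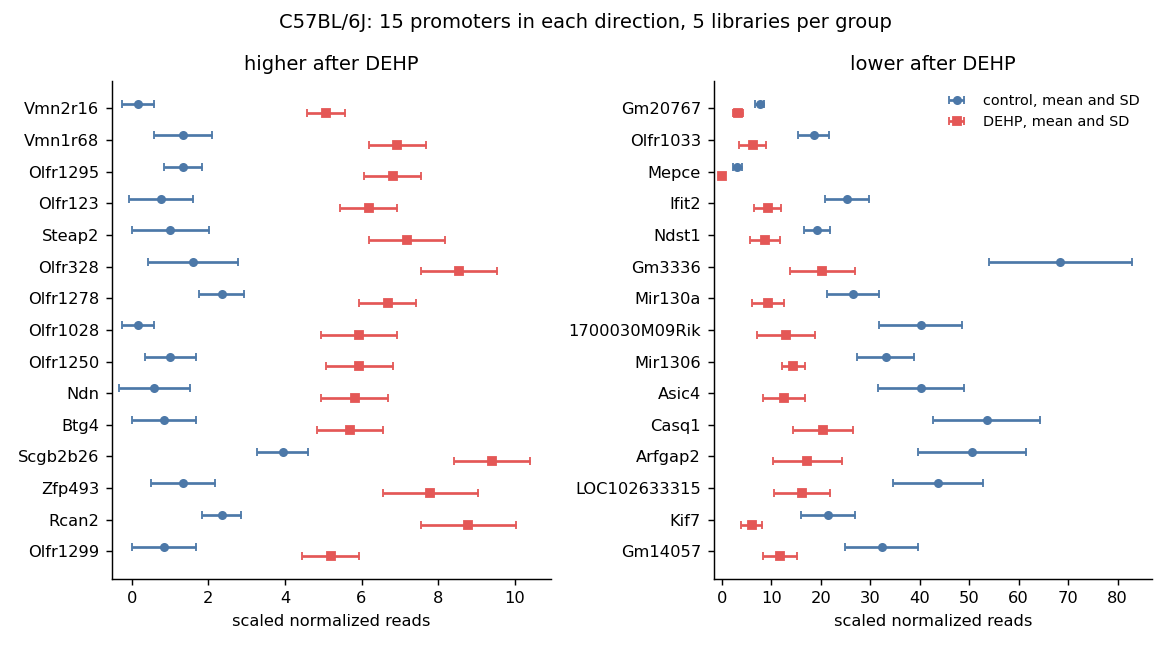
Authors' mean and SD over 5 libraries of C57BL/6J control (blue) and DEHP (red) sperm, in scaled normalized reads, for the 15 promoters with the largest difference over SD in each direction. Among those higher after DEHP the control means lie between 0.17 and 3.94, and among those lower after DEHP the control means lie between 3.19 and 68.4.

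MicroRNAs are short RNAs that pair with messenger RNAs mainly through bases 2 to 8 (the seed). Separated above were 9 of 996 promoters named Mir (0.904%), and separated below were 2 (0.201%), close to the 1.02% and 0.129% of all promoters. Of the 996, 99 (9.94%) were at least 2-fold lower after DEHP, against 2.36% of all promoters. At least 2-fold higher were 115 (11.5%), against 15.9%. Mir15b and Mir16-2 are neighbours on chromosome 3 with overlapping probes, so they count as nearly the same region. Both probes also overlap exons of Smc4. Mir15b had 2.77 ± 0.75 in control and 13.0 ± 3.34 in DEHP sperm, and Mir16-2 had 2.52 ± 0.75 and 12.5 ± 2.85. Both were separated under all 5 scalings, with log2 ratios of -1.89 and -1.94, and their FVB/N ratios were -0.89 and -0.82. On the other side, Mir130a had 26.5 ± 5.20 and 9.41 ± 3.22, and Mir1306 had 33.1 ± 5.70 and 14.5 ± 2.35. Mir1306 lies within Dgcr8, which encodes a component of the microRNA processing complex, and its probe overlaps exons of that gene. Mir130a and Mir1306 were separated below in FVB/N too, with log2 ratios of 1.88 and 1.69. The products of these 4 genes follow from RefSeq with the seed in capitals, since they show which of them share a seed.
miR-15b-5p: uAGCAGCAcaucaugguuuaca
miR-16-5p: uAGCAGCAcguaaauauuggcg
miR-130a-3p: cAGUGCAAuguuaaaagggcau
miR-1306-5p: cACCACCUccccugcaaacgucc
The 5p products of Mir15b and Mir16-2 share the seed AGCAGCA, and the other 2 seeds differ from it and from each other. The median log2 ratio of all 996 Mir promoters was 0.06, which is 0.40 above that of all promoters and stayed 0.40 to 0.47 above it under the 5 scalings. Their control signal was a median of 14.8 scaled reads, against 4.19 for all promoters. After a trend on level was taken out, their median log2 ratio lay 0.06 below that of all promoters, and after a trend on CG sites 0.35 above it.

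Imprinted promoters as a whole had a median close to that of all promoters. The 126 promoters marked as imprinted had a median log2 ratio of -0.38. At least 2-fold higher were 15 (11.9%), at least 2-fold lower 2 (1.59%) and separated above 3 (2.38%). The shares of all promoters were 15.9%, 2.36% and 1.02%. The 3 were Ndn, Snrpn and AF357426, the last of which had 1.01 ± 0.92 in control and 6.81 ± 1.86 in DEHP. Snrpn had 0.42 ± 0.59 and 4.95 ± 1.24 (log2 ratio -2.07), and like Ndn it was separated under all 5 scalings. The Snrpn probe lies far upstream of the gene body and overlaps no GENCODE exon. The probe named Snurf, which overlaps exons of Snrpn, had 1.01 ± 0.67 and 1.49 ± 1.24. The signals of Snrpn and Ndn in FVB/N differed in the same direction, with log2 ratios of -1.30 and -1.04, and were not separated there.

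The stretch from Atp10a to Peg12, which includes the genes of the Prader-Willi region, was looked at after these values were seen. It holds 27 promoters between chr7:58656202-62466510, of which 26 had more signal after DEHP and 15 (55.6%) were at least 2-fold higher. The probes of A330076H08Rik and Mir344g, both among the 15, overlap almost fully and count as nearly the same region. Of all promoters, 68.6% had more signal and 15.9% were at least 2-fold higher. The stretch is poor in CG, with a median of 9 sites, and of the 2006 promoters with 1 to 10 CG sites 96.8% had more signal and 49.3% were at least 2-fold higher. Its median log2 ratio of -1.07 compares with -0.99 in those 2006 promoters, and after the trend on CG sites was taken out it lay 0.29 below all promoters. After the trend on level was taken out instead, it lay 0.62 below. Separated above were 4 promoters. Of these 4, Ndn and Snrpn are protein-coding, and Mir344d-3 (0.17 ± 0.42 and 3.59 ± 0.87) and Mir344 (listed at 0 in control and 2.48 ± 0.62 in DEHP) belong to a microRNA cluster. All 11 promoters of the Mir344 cluster had more signal after DEHP, with log2 ratios from -0.57 (Mir344i) to -1.97 (Mir344d-3) and a median of -1.51. Their directions were kept under all 5 scalings. Control means in this cluster did not exceed 2.01 scaled reads, and the probes held 6 CG sites as a median. In FVB/N, 9 of these 11 promoters had more signal after DEHP.

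The 5p products of Mir344 and Mir344d-3 are shown because they carry the same seed, GUCAGGC.
miR-344-5p: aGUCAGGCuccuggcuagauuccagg
miR-344d-3-5p: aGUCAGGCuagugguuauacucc
Among the protein-coding neighbours, Magel2, a paternally expressed regulator of protein recycling, had 6.12 ± 1.51 in control and 12.6 ± 3.71 in DEHP (log2 ratio -0.94). Mkrn3 and Ube3a, both ubiquitin ligases, had -0.47 and -0.41, and Atp10a and Peg12 had -0.07 and -0.45. The ratios of Atp10a, Ipw, Snurf and Peg12 changed sign with the scaling.

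**Figure D4:**
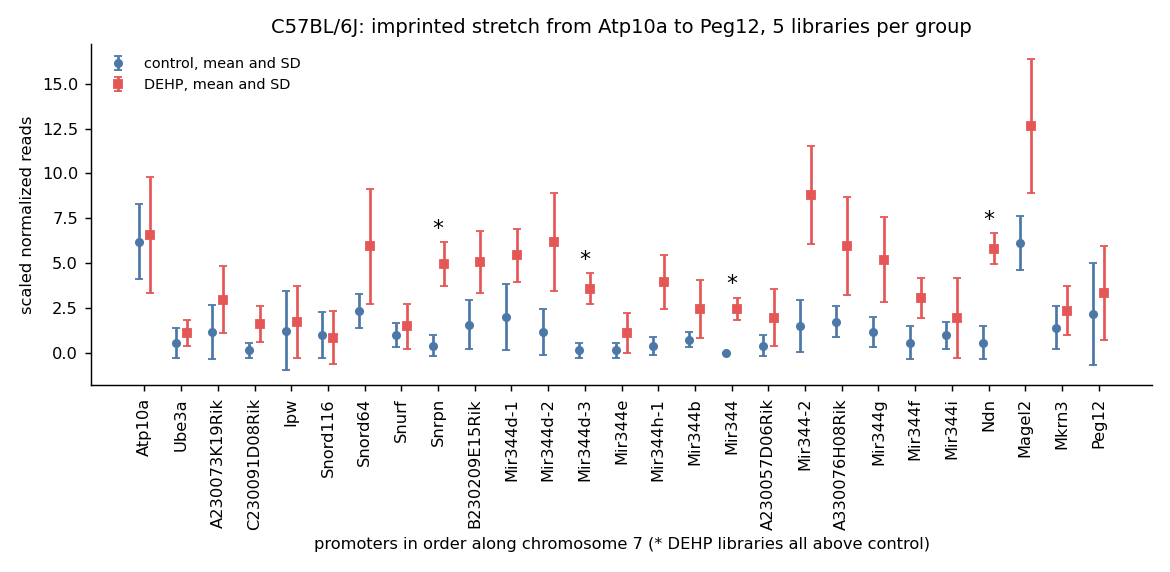
Authors' mean and SD over 5 libraries of C57BL/6J control (blue) and DEHP (red) sperm at the 27 promoters from Atp10a to Peg12, in their order along chromosome 7 and in scaled normalized reads. Asterisks mark the 4 separated promoters, Snrpn, Mir344d-3, Mir344 and Ndn, whose control means lie below 1 scaled read.

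As a check of the labelled cell type, 16 genes were listed that carry their mark in the egg and should be free of it in sperm. Their median control signal was 3.23 scaled reads, against 4.19 for all promoters. Of the 3 genes that carry it in sperm, H19 had 21.2 ± 6.12 and Meg3 21.6 ± 8.64 in control. The third, Rasgrf1, had 2.01 ± 2.77, and its probe at the gene start need not cover the marked region. In the first list, Nnat (22.2 ± 7.21) and Inpp5f (12.6 ± 5.12) stood well above the median of 3.23. After DEHP, H19 had 22.3 ± 8.67 and Meg3 11.4 ± 3.34. Of the 16 genes, 9 (56.25%) had more signal after DEHP under the common sum, against 68.6% of all promoters. Separated above were 2, Ndn and Snrpn. The Snrpn probe lies far upstream of the gene body, and the Snurf probe, over exons of Snrpn, was not separated. A list of 11 germline genes with CG-rich promoters (Dazl, Ddx4, Mael and others), which are methylated in somatic cells, had 0 separated. Its median was 5.03 scaled reads in control and 8.05 in DEHP, against 4.19 and 6.56 in all promoters. Its median log2 ratio was -0.31, and a share of somatic DNA was not tested further. In control, the medians of both lists lay close to that of all promoters, so these lists do not decide the check.

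Clustered protocadherins were higher after DEHP almost throughout under the common sum. These genes encode neuronal cell adhesion proteins that are expressed in random combinations. Of all promoters, 68.6% had more signal after DEHP, 15.9% were at least 2-fold higher and 2.36% at least 2-fold lower. Of 58 promoters of Pcdha, Pcdhb and Pcdhg on 57 distinct probes (Pcdha4 and Pcdha4-g share 1), 57 (98.3%) had more signal after DEHP, 35 (60.3%) were at least 2-fold higher and 0 at least 2-fold lower. Their median log2 ratio of -1.06 lay 0.72 to 0.76 below that of all promoters under the 5 scalings. After a trend on CG sites was taken out, it still lay 0.88 below, and after a trend on level 0.64 below. Separated above were 3 promoters (5.17%, against 1.02% of all promoters), all of the Pcdha cluster. Pcdha2 had 0.59 ± 0.59 in control and 3.71 ± 0.62 in DEHP, Pcdha11 had 0.84 ± 0.84 and 7.80 ± 2.10, and Pcdha3 had 2.43 ± 1.17 and 11.9 ± 3.22. Pcdha11 was separated under all 5 scalings, Pcdha2 under 3 and Pcdha3 under 2. The exception under the common sum was Pcdhgc5, which had 46.5 ± 18.6 and 24.0 ± 9.04 (log2 ratio 0.93). The ratios of Pcdha1, Pcdha7, Pcdha9, Pcdhac2, Pcdhb1, Pcdhb13, Pcdhga2, Pcdhga9, Pcdhga10 and Pcdhgc4 changed sign with the scaling. In FVB/N, the class had a median of -0.73, and 51 of its 58 promoters (87.9%) had more signal after DEHP, against 66.6% of all promoters.

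Receptor genes were shifted as a class to a like extent, with medians of -1.01 for 1074 Olfr, -1.13 for 144 Vmn1r and -1.02 for 94 Vmn2r promoters. After the trend on CG sites was taken out they lay 0.09, 0.26 and 0.08 below all promoters, and these promoters held 8 CG sites as a median. After the trend on level was taken out instead, they lay 0.46, 0.56 and 0.51 below. Among 49 histone genes the median was -0.64, with 14 promoters (28.6%) at least 2-fold higher, 0 lower and 0 separated. Hist1h4k, a gene of histone H4, had 1.17 ± 0.84 and 6.19 ± 2.23. Among 338 Zfp genes, 80 (23.7%) were at least 2-fold higher, 1 (0.296%) at least 2-fold lower and 5 (1.48%) separated above, where all promoters had 15.9%, 2.36% and 1.02%. Among 162 genes whose symbols begin with Cyp, Ugt, Gst or Sult, 39 (24.1%) were at least 2-fold higher and 2 (1.23%) at least 2-fold lower. Many of these genes metabolize steroids and foreign compounds, but the set was taken by symbol and not by function. These promoters held 16 CG sites as a median, and after the trend on CG sites was taken out their median lay 0.0095 below that of all promoters. After the trend on level was taken out instead, it lay 0.24 below. In that group the cytochrome Cyp2c39 was listed at 0 in control and had 4.46 ± 0.99 in DEHP, and the glutathione transferase Gstz1 had 1.59 ± 1.85 and 7.80 ± 1.24. Both were separated above, Cyp2c39 under all 5 scalings.

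Developmental regulators went the other way relative to all promoters. The 38 Hox promoters had a median of -0.08 and the 100 promoters of transcription factor families such as Sox, Fox, Pax, Lhx, Tbx and Gata a median of -0.05. They stayed above the median of all promoters by 0.16 to 0.26 and by 0.26 to 0.29 under the 5 scalings. Hoxd10 had 1.59 ± 0.50 in control and was listed at 0 in DEHP, and it was the only Hox promoter separated. The largest ratio among the other class was that of Sox10 at 1.08 (35.2 ± 14.4 and 16.1 ± 4.58), where both ranges overlapped.

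**Figure D5:**
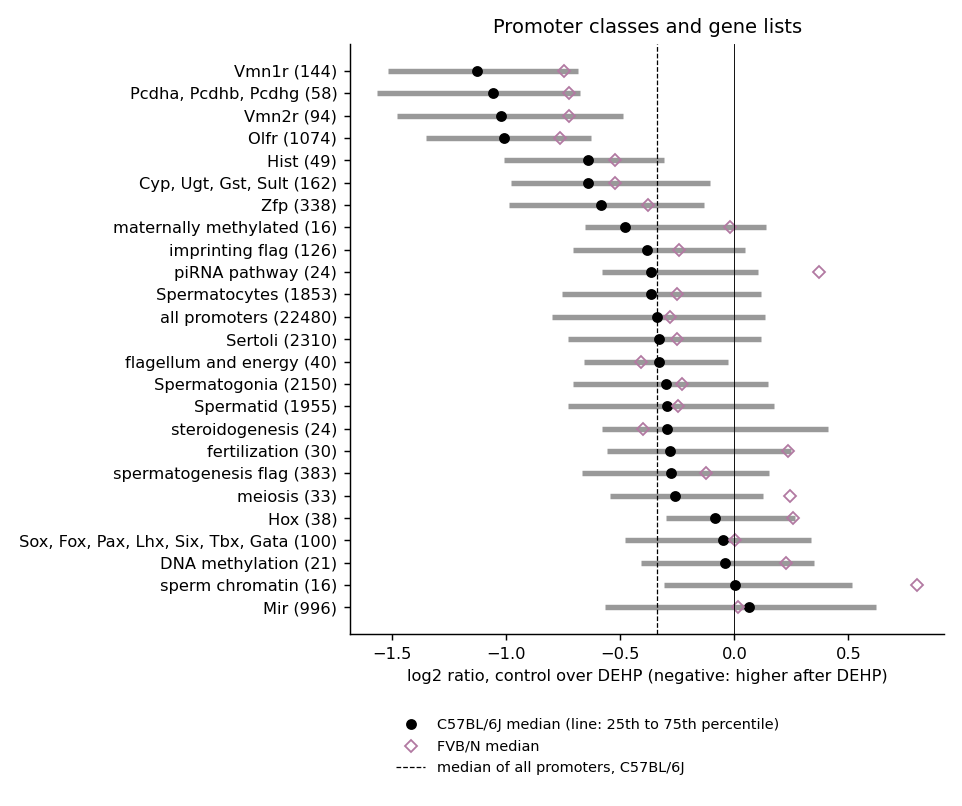
Median log2 ratio of control over DEHP (black points) with quartiles (grey lines) in C57BL/6J for promoter classes and gene lists, each with its number of promoters, and the FVB/N median as an open diamond. The classes run from -1.13 in Vmn1r to 0.06 in Mir, and the 4 testis cell expression classes lie within 0.05 of the median of all promoters at -0.34.

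The 383 promoters with the spermatogenesis term had a median of -0.28, with 36 (9.40%) at least 2-fold higher and 7 (1.83%) at least 2-fold lower, against 15.9% and 2.36% of all promoters. Separated above were 4 (1.04%), against 1.02%. Among these 4 were Cep131, a centrosomal protein, with 5.87 ± 1.34 in control and 14.2 ± 2.10 in DEHP, and Dpy19l2, which holds the acrosome to the nucleus, with 0.59 ± 0.59 and 5.82 ± 2.10. By expression of the gene in isolated testis cells, the medians were -0.30 in 2150 genes highest in spermatogonia, -0.36 in 1853 highest in spermatocytes, -0.30 in 1955 highest in spermatids and -0.33 in 2310 highest in Sertoli cells. Genes without an expression value had -0.47. Separated promoters of the spermatid class included Btg4, the RNA-editing enzyme Adarb1 (4.61 ± 2.10 and 13.5 ± 1.61) and, in the other direction, Casq1. In the spermatocyte class, the chemokine-like gene Cklf was separated above (1.34 ± 0.75 and 7.68 ± 1.73).

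Of 16 genes of sperm chromatin, 8 (50%) had more and 8 less signal after DEHP, and 0 were separated. The share with more signal was 68.6% over all promoters. The highest log2 ratios were those of Prm3, Tnp2 and Prm2. Tnp2, a transition protein, and Prm2, a protamine, replace histones in spermatids. Prm3 had 57.9 ± 23.2 in control and 24.5 ± 9.78 in DEHP, Tnp2 had 36.1 ± 16.5 and 17.5 ± 5.57, and Prm2 had 24.2 ± 5.45 and 11.9 ± 3.34. Their log2 ratios were 1.21, 1.01 and 0.97, and differences were 1.44, 1.13 and 2.27 times the larger SD. By level, the medians of all promoters were 0.03 at 10 to 20 scaled reads, 0.44 at 20 to 40 and 0.998 at 40 or more. Tnp1, the other transition protein, went the other way with 5.37 ± 2.26 and 8.67 ± 1.61, and Prm1 had 20.3 ± 9.98 and 14.6 ± 3.59. In FVB/N, Prm3, Tnp2 and Prm2 had ratios of 1.18, 1.17 and 0.84.

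Among 30 genes of fertilization, 3 (10%) were at least 2-fold higher after DEHP and 1 (3.33%) at least 2-fold lower, against 15.9% and 2.36% of all promoters, with 0 separated. The acrosomal protein Spaca4 had 70.5 ± 29.0 and 27.4 ± 14.2 (log2 ratio 1.33), and Acrbp, which binds proacrosin, had 68.1 ± 24.2 and 34.3 ± 12.9. Zp3r, an acrosomal matrix protein, had 6.63 ± 2.26 and 15.1 ± 2.85 (log2 ratio -1.08, 2.98 times the larger SD). Among 40 genes of the flagellum and its energy supply, 5 (12.5%) were at least 2-fold higher and 0 lower, which is not above the share of all promoters. Spef2, needed for the axoneme, had 1.17 ± 0.84 and 6.44 ± 2.35, and the fibrous sheath anchor Akap3 had 0.42 ± 0.50 and 3.59 ± 1.98. The glycolytic enzyme of the sperm tail, Gapdhs, had 18.8 ± 8.05 and 9.53 ± 3.47. Of 33 genes of meiosis, Prdm9, which places recombination sites, had the highest ratio at 0.98 (17.4 ± 5.45 and 8.30 ± 2.60).

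Of 21 genes that write, read or remove DNA methylation, 0 were separated below and 1 above (4.76%, against 1.02% of all promoters). This was Kdm1b, a histone demethylase needed for imprints in the egg, with 6.12 ± 1.34 in control and 13.6 ± 2.60 in DEHP, and it was separated under 1 of the 5 scalings. Ctcfl, a testis paralogue of CTCF, had 20.97 ± 4.03 and 10.8 ± 3.71 (log2 ratio 0.90) and was separated below under 3 scalings. The methyltransferases Dnmt1, Dnmt3a and Dnmt3l had ratios of 0.65, 0.36 and 0.34, each less than 1 larger SD, and Dnmt3b had -0.88. Of 24 genes of the piRNA pathway, which silences transposons in germ cells, 2 (8.33%) were at least 2-fold higher, 0 lower and 0 separated. The shares of all promoters were 15.9% higher, 2.36% lower and 1.02% separated above. Piwil2 had 3.35 ± 1.68 and 8.17 ± 3.34 and Piwil4 3.94 ± 1.68 and 7.55 ± 2.10, with log2 ratios of -1.07 and -0.79. In FVB/N these were 1.18 and -0.10.

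Of 24 genes of steroid synthesis and action, 2 (8.33%) were at least 2-fold higher after DEHP, below the 15.9% of all promoters, 0 lower and 0 separated. The estrogen receptor Esr1 had 2.60 ± 1.17 and 7.55 ± 2.60 (log2 ratio -1.25), and the steroid dehydrogenase Hsd3b6 had 2.18 ± 2.18 and 7.55 ± 3.71. The Leydig cell hormone Insl3 had 17.8 ± 6.46 and 10.03 ± 6.44, and Lhcgr, the receptor for luteinizing hormone, 18.7 ± 6.21 and 11.6 ± 2.35. Star and Cyp17a1, early steps of the pathway, differed by 0.59 and 0.75 of the larger SD. Among 22 genes of PPAR and xenobiotic receptors, through which phthalates can act in liver, 3 (13.6%) were at least 2-fold higher, which were Cyp4a10, Ehhadh and Cyp4a14, and 0 were separated. The median ratios of both lists, -0.30 and -0.33, were close to that of all promoters.

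In FVB/N, 2766 promoters (12.3%) were at least 2-fold higher after DEHP and 741 (3.3%) at least 2-fold lower, and 141 (0.627%) were separated above and 233 (1.04%) below. Of the 230 promoters separated above in C57BL/6J, 10 were also separated above in FVB/N, which is 4.35% of the first and 7.09% of the second list. Of the 29 separated below, 7 were shared, which is 24.1% and 3.00%. None was separated in opposite directions, and whether the strains differed at a promoter was not tested. The median FVB/N log2 ratio was -0.85 over the 230 promoters and 1.19 over the 29. By direction alone, 216 of the 230 promoters had more signal after DEHP in FVB/N, and 28 of the 29 had less. Of all promoters in FVB/N, 66.6% had more signal after DEHP and 33.2% less. The 230 held a median of 15.5 CG sites. Of FVB/N promoters with 1 to 10 and 11 to 20 sites, 88.9% and 85.9% had more signal after DEHP. The FVB/N libraries belong to the same submissions as the C57BL/6J libraries of their treatment, so this likeness between strains cannot be told apart from the submission.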

How the data were processed

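Sperm DNA was captured with the MethylCap kit and sequenced. Read-pairs were mapped by the authors to mm10 (Bowtie 0.12.7), those without a single position were dropped, and pairs were counted per promoter probe and normalized with edgeR. The deposited signal gives each group's mean and SD of these reads to 1 decimal. Per the paper's methods, preparations with somatic cells were discarded. The deposited expression score per gene comes from another dataset, and its scale is not stated. Columns with the authors' fold changes, p-values and FDR were not used. Depth of single libraries was not used here, so no counting interval is given, and the planned tests for single libraries were not run.

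Both strains were scaled to equal sums. The pseudocount was 1. Ranges were widened by 0.05 for rounding. CG content came from GRCm38.p6, where 93.2% of the probes had the deposited number of CG sites, exons from GENCODE, and trends from lowess (fraction 0.3). An expression class needed a value at least 1 above the median of the other populations. The bound was tested on simulated data. Named promoters were, in each direction, the 15 with the largest difference over SD among separated promoters at least 2-fold apart with 3 or more scaled reads. In each class, the extreme members and the 3 with the largest difference over SD were eligible. Listed genes beyond 1 larger SD were eligible too. Promoters, classes and lists were chosen with earlier results of these data known. Genes outside these rules, such as Fgf4, Snrpn as a printed sequence, Mir15b, Mir16-2, Star, Dnmt1 and the stretch on chromosome 7, were chosen after their values were seen. A total of 210 promoters share a probe with another symbol. Python 3.11.15, numpy, pandas, statsmodels and matplotlib were used.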

Additional observations from a re-analysis of the deposited data

How the results depend on the processing

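The balance of directions depended on how both columns were scaled. Against 3585 promoters at least 2-fold higher and 531 lower after DEHP, with 230 separated above and 29 below, the deposited values gave 1265, 2488, 56 and 319. Means scaled to equal medians gave 1000, 2922, 50 and 422, and a trimmed mean gave 1529, 1812, 74 and 200. Sums without the strongest 1% of promoters left 47 separated below. A pseudocount of 0.1 gave 5862 and 840 promoters past 2-fold, and a pseudocount of 3 gave 843 and 324. Among promoters with a mean of at least 5, 958 were at least 2-fold higher and 84 separated above, out of fewer promoters. A bound of 2 SD left 116 above and 14 below, since it is stricter. Relative to all promoters, Vmn1r and Vmn2r had medians of -1.24 each with a pseudocount of 0.1, and Vmn2r had -0.071 at means of at least 5. Less the trend on CG sites, Olfr, Vmn1r and Vmn2r lay at -0.093, -0.26 and -0.080, and Defa and Defb changed sign to 0.0025. Less the trend on level, an alternative chosen after seeing the data, Mir changed sign to -0.059 and promoters of 21 to 40 CG sites to -0.067. The causes were not tested. The log2 ratios of the 30 named promoters kept their direction under all 6 scalings and pseudocounts tried. A pseudocount cannot reverse a direction, and for the promoters lower after DEHP the other scalings could not either. No paired analysis was possible because the table holds group means and no values of single libraries. For the same reason, leaving out single libraries was not run. With about 1 read per library at the weakest promoters, ratios there are coarse.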
